A study of Oryza sativa with 12 samples.

Results

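The genes described here are 7 rice loci for potassium and sodium transport in roots: Os04t0401700 (HAK1), Os01t0930400 (HAK5), Os06t0625900 (HAK10), Os06t0701700 (HKT2;1), Os01t0307500 (HKT1;5), Os07t0666900 (NHX1) and Os12t0641100 (SOS1). They were taken from a fixed list of loci, and every annotated transcript of each locus was kept, which gave 11 transcripts among the 42081 transcripts of 34791 loci in the deposited table. The deposited descriptions named a potassium transporter for HAK1, HAK5 and HAK10, a high-affinity K+ transporter for HKT2;1 and a Na+/H+ antiporter for NHX1 and SOS1, whereas Os01t0307500 was described only as a member of the cation transporter family. RNA-Seq gave the transcript levels of 12 root libraries, with 2 libraries per genotype and stage. The genotypes were the paternal restorer line R9308, which carries 25% japonica components, the maternal indica line Xieqingzao B, and their F1 hybrid Xieyou 9308. All plants were raised in the field as seedlings and then floated on nutrient solution, and roots were taken once during tillering and once at heading, with no salt or potassium treatment named for any group.

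Rice roots take up potassium through channels and through HAK transporters, which are proton-coupled and work at low external potassium. HKT proteins carry sodium, either into the root or back out of the xylem sap, so that less sodium reaches the shoot. NHX1 loads sodium and potassium into the vacuole in exchange for protons, and SOS1 exports sodium from the cell across the plasma membrane, also in exchange for protons.

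The counts assigned to transcripts summed to between 8209696 and 15830233 per library. The hybrid libraries of the tillering stage differed most from each other, with an SD of 1.21 for the difference of their log2(RPKM + 1) values over 25961 transcripts, against 0.534 to 0.951 in the other groups. RPKM is the number of reads per kilobase of transcript, scaled to the assigned reads of the library, and it allows levels of different genes to be compared. All 6 root marker transcripts, among them the silicon transporters Lsi1 and Lsi2, had counts in every group, and their summed level lay between 524 and 1828 RPKM. Of 35 green tissue transcripts (Rubisco small subunit and light-harvesting proteins), 32 had counts in R9308 at the tillering stage. They summed to 7906 RPKM in 1 of the 2 libraries of this group but to 19.6 RPKM in the other. Elsewhere the sum was 8.57 to 34.0 RPKM among tillering libraries, and among heading libraries it was 6.21 to 9.61 RPKM in R9308, 110 to 192 RPKM in Xieqingzao B and 176 to 384 RPKM in the hybrid. The part of this signal in the results below was not tested. In whole roots, fewer cells that express a gene and less RNA per cell cannot be told apart. The p-values rest only on the spread between the 2 roots sampled per group, estimated jointly over all groups of a fit and shared between transcripts.

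HAK1 and SOS1 had the highest levels of the 7 loci at heading, and HAK1, HKT2;1 and SOS1 had the highest at tillering. Each locus is represented by its main transcript, the one with the highest mean over the 12 libraries. This mean was 64.5 RPKM for HAK1, 47.7 RPKM for SOS1, 21.6 RPKM for HKT2;1, 19.6 RPKM for HAK10, 6.53 RPKM for HKT1;5, 4.46 RPKM for HAK5 and 4.13 RPKM for NHX1. In R9308 and Xieqingzao B at both stages and in the hybrid at the heading stage HAK1 ranked first. Its libraries overlapped those of the second locus only in Xieqingzao B at the tillering stage. In the hybrid at the tillering stage SOS1 ranked first with 26.5 ± 6.28 RPKM (mean ± SD, n = 2), and the libraries of SOS1, HKT2;1, HAK1 and HAK10 overlapped each with the next. By sums over the transcripts of a locus HAK1 had the highest mean there as well, with overlapping values of 43.1 and 12.4 RPKM against 32.7 and 22.4 RPKM for SOS1. Os01t0307500 had rank 3 in Xieqingzao B, rank 6 in R9308 and rank 7 in the hybrid at heading, and this change of rank was the greatest of any of the 7 loci between genotypes at that stage.

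**Figure D1:**
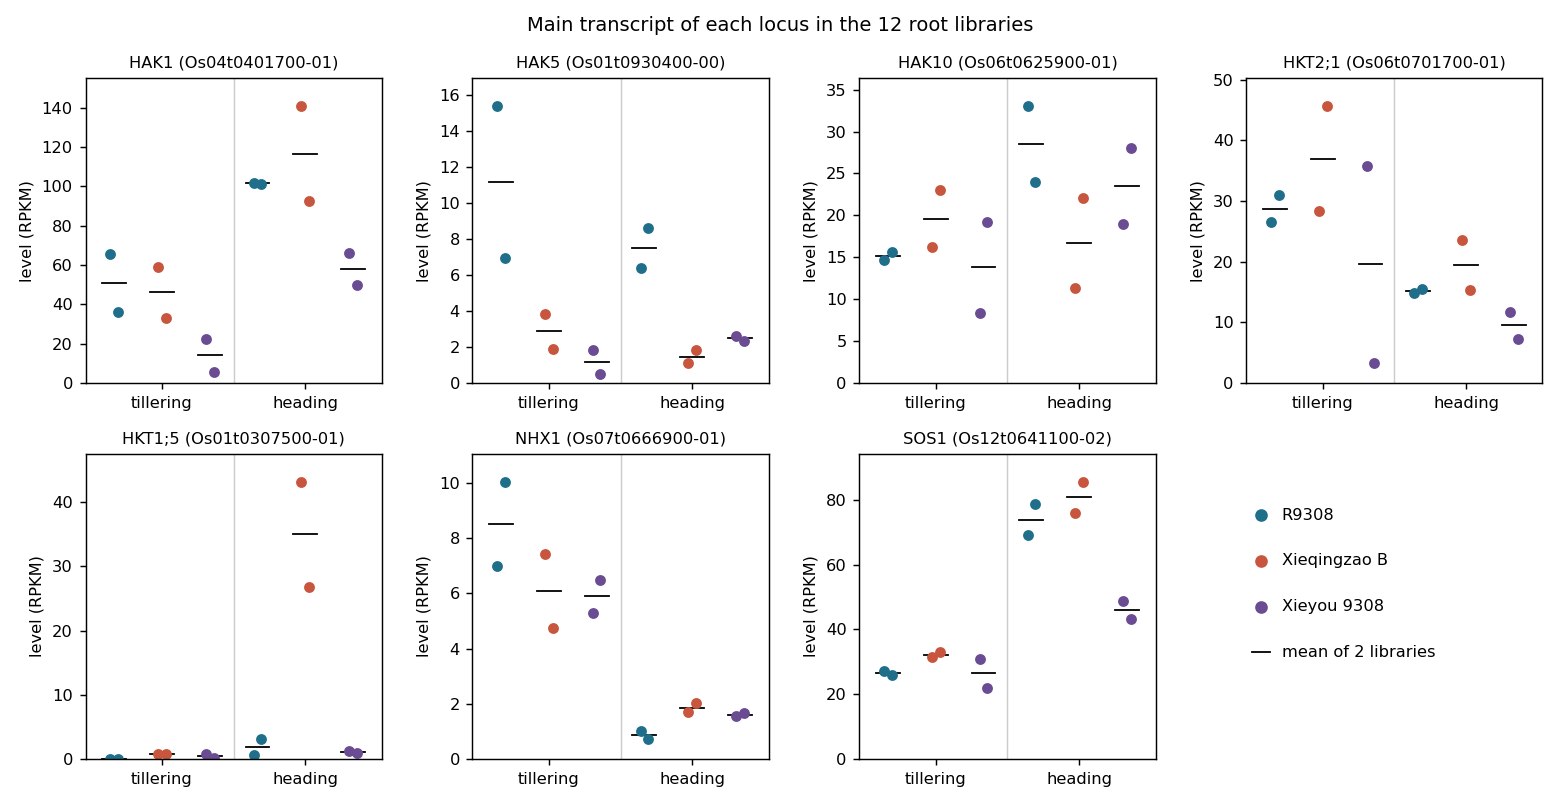
Level (RPKM, vertical axes start at 0) of the main transcript of each of the 7 loci in the 12 libraries, with 1 point per library, coloured by genotype, and a black line at the mean of the 2 libraries of a group. HKT1;5 stood above 26 RPKM only in the 2 Xieqingzao B libraries of the heading stage, and NHX1 was lower and SOS1 higher in every heading library than in every tillering library.

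Genotypes were compared on the 6 libraries of a stage by the quasi-likelihood test of edgeR, and a transcript was called at an adjusted p-value of at most 0.05 over all transcripts tested together with a fold change of at least 2. At heading, 2 of 9 member transcripts tested were called between the parents, against 10.8% of all 27187 transcripts tested, and 1 of 9 was called between the hybrid and Xieqingzao B, against 8.1%. None of the 9 was called between the hybrid and R9308, where 0.886% of all transcripts were, and 4 of the 9 had an unadjusted p below 0.05, against 15.7% of all transcripts, and DESeq2 called 1, against 5.15%. At tillering, no member was called in any pair. The background was then 0.0106% of 28434 transcripts between the hybrid and R9308, 0% between the hybrid and Xieqingzao B and 0.0246% between the parents. Unadjusted p was below 0.05 for 4, 1 and 1 of the 11 members in these pairs, against 17.3%, 8.57% and 9.01% of all transcripts, and DESeq2 called 3, 1 and 0, against 8.82%, 2.93% and 4.41%. Between stages, 2 of 11 members were called in R9308, against 1.2% of 29560 transcripts. None was called in Xieqingzao B, with a background of 0.088%, or in the hybrid, with 1.68%, where unadjusted p was below 0.05 for 3 and 4 members, against 19.6% and 25.1% of all transcripts, and DESeq2 called 3 and 2, against 9.41% and 13.3%.

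The change of a genotype difference from one stage to the other was tested as an interaction over all 12 libraries. No member and 0% of all 29560 transcripts were called for the hybrid against R9308, the hybrid against Xieqingzao B or Xieqingzao B against R9308. Unadjusted p was below 0.05 for 3, 2 and 2 members in these contrasts, against 15.8%, 15.2% and 12.4% of all transcripts, and DESeq2 called 0, 1 and 0, against 5.61%, 4.93% and 3.94%. A call at 1 stage below therefore does not show that the genotypes differed less at the other.

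**Figure D2:**
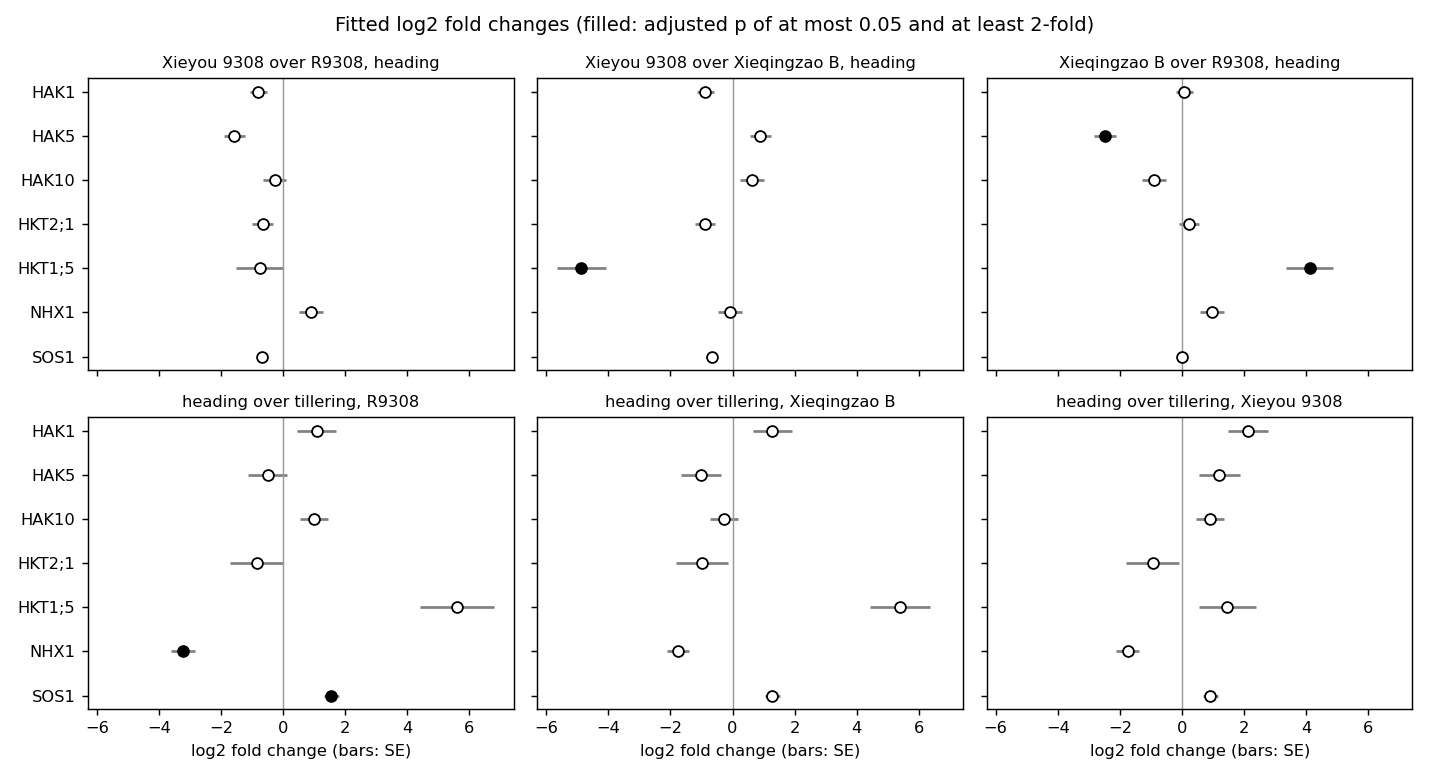
Fitted log2 fold change (horizontal axis) with its standard error for the main transcript of each locus, in the 3 genotype comparisons at the heading stage (upper row) and in the stage comparison within each genotype (lower row). Filled points passed the adjusted p-value and the fold threshold, which were HKT1;5 (4.11) and HAK5 (-2.47) between the parents, HKT1;5 (-4.87) between the hybrid and Xieqingzao B, and NHX1 (-3.22) and SOS1 (1.55) between the stages in R9308.

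HAK1 encodes a high-affinity potassium uptake transporter of the rice root that is known to be induced when potassium is scarce. Its main transcript, Os04t0401700-01, stood at 65.4 and 35.9 RPKM in the R9308 libraries of the tillering stage, at 59.1 and 33.3 RPKM in Xieqingzao B and at 22.5 and 5.73 RPKM in the hybrid. The heading libraries held 102 and 101 RPKM in R9308, 141 and 92.3 RPKM in Xieqingzao B and 66.0 and 49.7 RPKM in the hybrid. Within each genotype both heading libraries lay above both tillering libraries, and at each stage both hybrid libraries lay below all 4 parental libraries. The hybrid mean was 29.1% of the mean of the parents at tillering and 53.1% at heading. No pair of genotypes passed the test. The hybrid differed from R9308 by a log2 fold change of -1.86 (SE 0.77, adjusted p = 0.296) and from Xieqingzao B by -1.69 (SE 0.76, adjusted p = 0.619) at tillering. The differences were -0.80 (SE 0.28, adjusted p = 0.263) and -0.87 (SE 0.28, adjusted p = 0.112) at heading. The stage difference was 1.08 in R9308 (SE 0.62, adjusted p = 0.360), 1.29 in Xieqingzao B (SE 0.62, adjusted p = 0.298) and 2.13 in the hybrid (SE 0.64, adjusted p = 0.0970) on the log2 scale. Without replicate 1 of the tillering hybrid, the higher of its 2 libraries, the last value was 3.52 (adjusted p = 0.00879), and without replicate 2 it was 1.43 (adjusted p = 0.227). Each of these fits left 1 library in that group, which was assumed to vary like the other groups, and the first of them called 5998 transcripts in place of 496.

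The hybrid at the tillering stage was the only group with counts for all 3 annotated transcripts of HAK1. Reads that fit more than 1 transcript of a locus are divided by RSEM, so that the separate counts of the 3 transcripts are uncertain estimates. Os04t0401700-01 and Os04t0401700-03 are 2932 and 2933 bases long. In the heading libraries Os04t0401700-01 took 82.2% to 88.2% of the counts of the locus and Os04t0401700-03 took the rest. In the tillering libraries of the parents Os04t0401700-01 took 61.7% to 91.9%. The shorter Os04t0401700-02 had 118 and 201 counts in the hybrid libraries of the tillering stage and none in the other 10 libraries. It made up 11.7% (Wilson 95% interval 9.83% to 13.8%) and 48.8% (44.0% to 53.6%) of the counts of the locus in these 2 libraries. Summed over both libraries of a group, the tillering hybrid exceeded R9308 135-fold and Xieqingzao B 107-fold when each group count of 0 was set to 3. These ratios allow for counting error only. They are no lower limits, because the division of reads among the 3 transcripts is itself uncertain. Neither the difference from R9308 nor that from Xieqingzao B passed the test (adjusted p = 0.154 and 0.299). In the hybrid library with 48.8% Os04t0401700-03 had no counts, against 352 in the other hybrid library. Summed over the 3 transcripts, the locus had 74.5 and 42.0 RPKM in R9308, 64.4 and 54.0 RPKM in Xieqingzao B and 43.1 and 12.4 RPKM in the hybrid at tillering, so that the hybrid then overlapped R9308. At heading the sums kept the hybrid below both parents, with 76.3 and 57.2 RPKM against 112 to 159.6 RPKM.

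**Figure D3:**
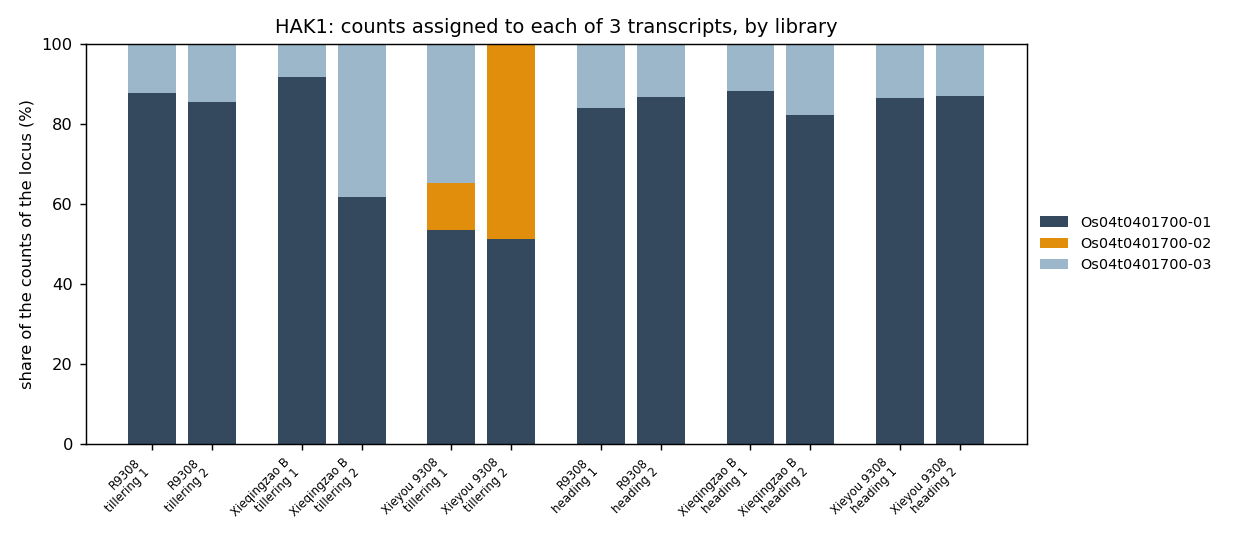
Share (%) of the counts of the HAK1 locus assigned to each of its 3 annotated transcripts, with 1 stacked bar per library in the order R9308, Xieqingzao B and Xieyou 9308 at the tillering and then at the heading stage. Os04t0401700-02 appears only in the 2 hybrid libraries of the tillering stage, with 11.7% and 48.8%.

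HAK5 encodes another high-affinity potassium transporter of the root, known in rice for uptake and for passing potassium on to the shoot at low supply. Os01t0930400-00, its only annotated transcript, stood at 15.4 and 6.94 RPKM in R9308, 3.87 and 1.93 RPKM in Xieqingzao B and 1.84 and 0.520 RPKM in the hybrid at the tillering stage. Heading values were 6.41 and 8.65 RPKM in R9308, 1.12 and 1.84 RPKM in Xieqingzao B and 2.63 and 2.37 RPKM in the hybrid. R9308 was thus the highest genotype at both stages with no overlap between groups. The heading level was 5.08-fold lower in Xieqingzao B than in R9308 in RPKM, with a log2 fold change of -2.47 (SE 0.35, adjusted p = 0.0146), and this difference passed the test. The hybrid differed from R9308 by -1.58 (SE 0.34, adjusted p = 0.117) and from Xieqingzao B by 0.89 (SE 0.34, adjusted p = 0.161) at the heading stage, and it lay between the parents in all libraries. At the tillering stage both hybrid libraries lay below all parental libraries, and the log2 fold changes were -3.27 against R9308 (SE 0.85, adjusted p = 0.199), -1.30 against Xieqingzao B (SE 0.80, adjusted p = 0.672) and -1.97 between the parents (SE 0.80, adjusted p = 0.558). Leaving out either heading library of R9308 ended the call between the parents (adjusted p = 0.0579 without replicate 1 and 0.0677 without replicate 2), as did a fit in which all 12 libraries entered together (adjusted p = 0.0716), with log2 fold changes of -2.67, -2.25 and -2.48.

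HAK10 belongs to another clade of the family and is known in rice as a transporter of the vacuolar membrane. Os06t0625900-01 had 14.7 and 15.6 RPKM in R9308, 16.2 and 23.0 RPKM in Xieqingzao B and 8.42 and 19.2 RPKM in the hybrid at the tillering stage. At heading it had 33.0 and 24.0 RPKM in R9308, 11.4 and 22.1 RPKM in Xieqingzao B and 18.9 and 28.1 RPKM in the hybrid. The hybrid libraries overlapped those of both parents at both stages. HAK10 passed no comparison, and the stage difference was 0.98 in R9308 (SE 0.45, adjusted p = 0.261), -0.27 in Xieqingzao B (SE 0.45, adjusted p = 0.789) and 0.90 in the hybrid (SE 0.45, adjusted p = 0.252) on the log2 scale.

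HKT2;1 is known in rice for the entry of sodium into potassium-starved roots. Its main transcript Os06t0701700-01 stood at 26.6 and 30.9 RPKM in R9308, 28.3 and 45.6 RPKM in Xieqingzao B and 35.8 and 3.34 RPKM in the hybrid at the tillering stage. Replicate 2 of the hybrid was the lowest of all 12 libraries, and HAK1 and HAK5 were also lowest in it. In the heading libraries the values were 14.9 and 15.5 RPKM in R9308, 23.5 and 15.3 RPKM in Xieqingzao B and 11.8 and 7.33 RPKM in the hybrid, and both hybrid libraries lay below all 4 parental ones. In each parent both heading libraries lay below both tillering libraries. None of these differences passed the test, with log2 fold changes of -0.65 (SE 0.33, adjusted p = 0.415) between hybrid and R9308 and -0.89 (SE 0.33, adjusted p = 0.153) between hybrid and Xieqingzao B at the heading stage, and of -0.85, -0.98 and -0.95 between stages in R9308, Xieqingzao B and the hybrid (adjusted p = 0.607, 0.564 and 0.511). The short transcript Os06t0701700-02, 768 bases long, had 21, 50, 21 and 45 counts in 4 libraries, namely replicate 2 of Xieqingzao B and both hybrid replicates from tillering and replicate 1 of R9308 from heading, and none in the other 8.

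HKT1;5 is known in rice roots for retrieving sodium from the xylem sap, which keeps it from the shoot. Os01t0307500-01 was low at the tillering stage, with 0 and 2 counts (0 and 0.0584 RPKM) in R9308, 20 and 16 counts (0.789 and 0.812 RPKM) in Xieqingzao B and 13 and 4 counts (0.732 and 0.147 RPKM) in the hybrid. By heading it had 1085 and 605 counts (43.2 and 26.8 RPKM) in Xieqingzao B, but 11 and 66 counts (0.566 and 3.12 RPKM) in R9308 and 24 and 19 counts (1.19 and 0.981 RPKM) in the hybrid. The 2 Xieqingzao B libraries were the highest of all 12 by a wide gap, and the libraries of the hybrid lay within the range of those of R9308. The mean of Xieqingzao B was 19.0-fold that of R9308 and 32.2-fold that of the hybrid, and the hybrid reached 5.90% of the mean of its parents. Both differences passed the test, with log2 fold changes of 4.11 for Xieqingzao B over R9308 (SE 0.75, adjusted p = 0.0277) and -4.87 for the hybrid over Xieqingzao B (SE 0.79, adjusted p = 0.0277). The hybrid differed from R9308 by -0.76 (SE 0.76, adjusted p = 0.686), which is within its error. The summed green tissue level at this stage, given above, was 6.21 to 9.61 RPKM in R9308, 110 to 192 RPKM in Xieqingzao B and 176 to 384 RPKM in the hybrid, and its part in these differences was not tested.

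The HKT1;5 call between the parents was lost without replicate 1 (adjusted p = 0.0731) or 2 (0.0746) of the hybrid, replicate 1 of R9308 (0.0502) or replicate 1 of Xieqingzao B (0.0741). Its log2 fold change was 3.36 without replicate 1 and 5.80 without replicate 2 of R9308, the lowest and highest of the 6 fits that left out a library. That between the hybrid and Xieqingzao B was lost without either hybrid library (adjusted p = 0.153 and 0.178) or replicate 1 of Xieqingzao B (0.0703), with log2 fold changes of -5.18 to -4.47.

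Between the stages the level of Os01t0307500 was 43.7-fold higher at heading in Xieqingzao B (log2 fold change 5.39, SE 0.98, adjusted p = 0.0599) and 2.47-fold higher in the hybrid (1.47, SE 0.93, adjusted p = 0.354), neither of which passed the test. In R9308, where the tillering libraries held 2 counts in all, the ratio of heading to tillering was 54.2 with an exact 95% interval of 14.5 to 455 that covers counting error only (adjusted p = 0.0622). At the tillering stage the same 2 counts gave a ratio of Xieqingzao B to R9308 of 22.8 (5.87 to 195) and of hybrid to R9308 of 10.8 (2.56 to 96.3), and neither passed the test between libraries (adjusted p = 0.391 and 0.284). The change of the hybrid difference between the stages was -3.93 against Xieqingzao B (SE 1.29, adjusted p = 0.235) and -4.14 against R9308 (SE 1.54, adjusted p = 0.261).

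NHX1 encodes the vacuolar Na+/H+ antiporter that moves sodium and potassium into the vacuole. Os07t0666900-01 stood at 6.98 and 10.0 RPKM in R9308, 7.43 and 4.73 RPKM in Xieqingzao B and 5.31 and 6.47 RPKM in the hybrid at tillering, and at 1.0 and 0.735 RPKM, 1.70 and 2.02 RPKM and 1.54 and 1.65 RPKM in the same order at heading. All 6 heading libraries lay below all 6 tillering libraries, which held for 4.4% of the 25961 transcripts with a mean of at least 1 RPKM. The level fell in R9308, by a log2 fold change of -3.22 (SE 0.39, adjusted p = 0.0275), and its heading mean was 9.80-fold lower. The difference was -1.75 in Xieqingzao B (SE 0.36, adjusted p = 0.0676) and -1.75 in the hybrid (SE 0.36, adjusted p = 0.0518), which missed the threshold. Whether R9308 changed more was not settled, as the change of the difference between stages was 1.47 for Xieqingzao B against R9308 (SE 0.51, adjusted p = 0.301) and 1.47 for the hybrid against R9308 (SE 0.51, adjusted p = 0.238). At heading R9308 had the lowest libraries, and the log2 fold change of Xieqingzao B over R9308 was 0.97 (SE 0.38, adjusted p = 0.171). The call in R9308 was lost in 7 of the 12 fits that left out a library. These were the fits without tillering replicate 1 of R9308, and without replicate 1 or 2 of heading R9308, of the heading hybrid or of tillering Xieqingzao B. The log2 fold change stayed between -3.50 and -2.90. In R9308, 1 of the 2 tillering libraries carried the green tissue signal given above, and its part in this call was not tested.

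SOS1 encodes the plasma membrane Na+/H+ antiporter that exports sodium. Its main transcript Os12t0641100-02, which took 93.5% to 98.5% of the counts of the locus, stood at 27.1 and 25.9 RPKM in R9308, 31.4 and 33.1 RPKM in Xieqingzao B and 30.9 and 22.0 RPKM in the hybrid at the tillering stage. At heading it had 69.3 and 78.6 RPKM, 76.1 and 85.6 RPKM and 48.9 and 43.3 RPKM in the same order. All 6 heading libraries lay above all 6 tillering libraries, as was the case for 2.1% of the 25961 transcripts, and both hybrid libraries lay below all 4 parental libraries at the heading stage. The level rose in R9308 by 1.55 on the log2 scale (SE 0.24, adjusted p = 0.0408). The difference was 1.28 in Xieqingzao B (SE 0.24, adjusted p = 0.0621) and 0.91 in the hybrid (SE 0.24, adjusted p = 0.0766), and neither passed the test. The heading hybrid differed by -0.67 from R9308 (SE 0.18, adjusted p = 0.171) and by -0.67 from Xieqingzao B (SE 0.18, adjusted p = 0.0766), while the parents differed by 0.00 (SE 0.18, adjusted p = 0.995). The call in R9308 held in the fits without replicate 1 or 2 of the tillering hybrid. It was lost without any 1 of the other 10 libraries (log2 fold change 1.46 to 1.60). Among these were both tillering libraries of R9308, 1 of which carried the green tissue signal. The minor transcript Os12t0641100-01 lay between 0.403 and 3.93 RPKM and passed no comparison.

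A stage difference averaged over the 3 genotypes was added after the values had been seen, because the heading libraries of NHX1 and SOS1 lay on 1 side of the tillering libraries in all genotypes. For these 2 loci it restates the pattern that prompted it and is no independent evidence. The values of HAK1 and HKT1;5 had been seen as well. Within each genotype both heading libraries of these loci lay above both tillering libraries. Their calls, and the count of called members, are therefore no independent evidence either. The averaged contrast used the same fit of 12 libraries and called 4 of 11 members, against 11.2% of 29560 transcripts. NHX1 fell by 2.24 on the log2 scale (SE 0.21, adjusted p = 0.00328) and SOS1 rose by 1.25 (SE 0.14, adjusted p = 0.00421), and both remained past the threshold without any single library. HAK1 rose by 1.50 (SE 0.36, adjusted p = 0.0281) in Os04t0401700-01, a call that was lost in 8 of the 12 fits without a library (adjusted p of up to 0.0850). The lost fits were those without replicate 2 of R9308 or replicate 1 or 2 of Xieqingzao B at the tillering stage, and without any heading library except replicate 2 of Xieqingzao B. HKT1;5 rose by 4.15 (SE 0.60, adjusted p = 0.00618), with R9308 resting on 2 counts at the tillering stage. HAK5 (-0.10, adjusted p = 0.891), HAK10 (0.54, adjusted p = 0.190) and HKT2;1 (-0.93, adjusted p = 0.227) did not pass. The median over the 7 main transcripts was 0.54, beside -0.04 over all transcripts tested. Transcripts of dividing cells, of which 2 of 4 were also lower at heading in this contrast, summed to 50.0 to 174 RPKM in the tillering and 31.0 to 66.3 RPKM in the heading libraries, and 3 of 6 root markers were higher and 1 was lower. The part of these shifts in the stage differences was not tested.

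The hybrid stood low for several members at the heading stage. Both hybrid libraries lay below all 4 parental libraries for 5 of 11 member transcripts, from the 3 loci HAK1, HKT2;1 and SOS1, against 14.6% of 25961 transcripts, and above them for 0 of 11, against 10.7%. At the tillering stage they lay below for 2 of 11, the main transcripts of HAK1 and HAK5, against 13.3%, and above for 1 of 11, the transcript Os04t0401700-02, against 12.0%. Os04t0401700-02 had counts only in the 2 tillering hybrid libraries. Through them alone it reached a mean of 1 RPKM, the limit for the 25961 transcripts. Its place above the parents is therefore no separate result. At heading this transcript had no counts and could lie on neither side. The hybrid mean at heading was 53.1% of the mean of the parents for HAK1, 55.2% for HKT2;1, 55.5% for HAK5 and 59.5% for SOS1, against 104% for HAK10 and 117% for NHX1. For HAK5 both hybrid libraries lay between those of the parents, and the hybrid mean was 1.69-fold that of Xieqingzao B. The median log2 fold change of the 7 main transcripts was -0.67 against each parent, beside 0.00 (R9308) and -0.03 (Xieqingzao B) over all transcripts. The 2 comparisons share the hybrid libraries, and of these differences only that of Os01t0307500 from Xieqingzao B passed the test.

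**Figure D4:**
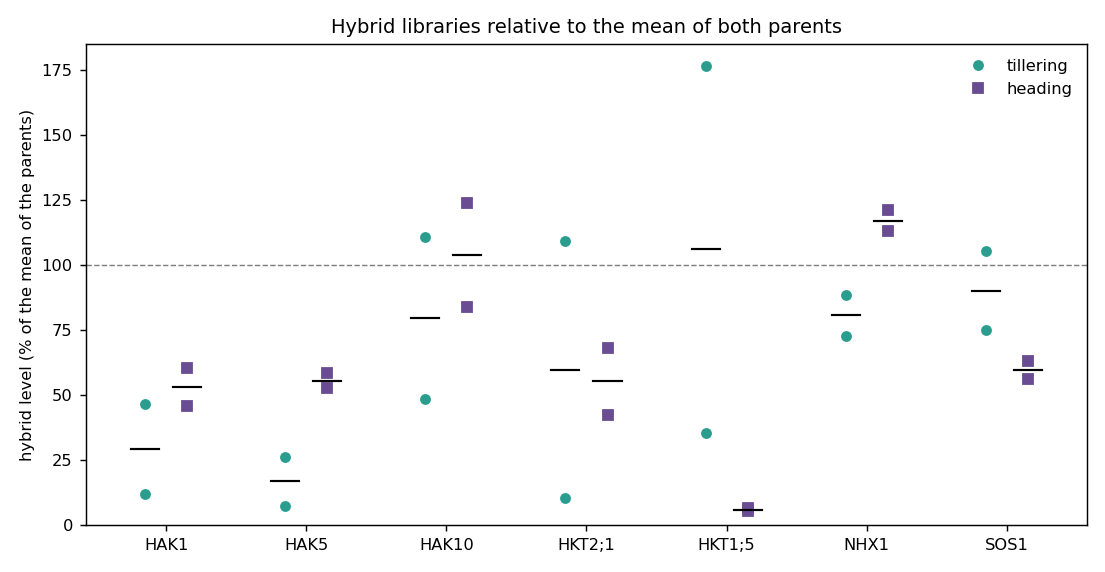
Level of each hybrid library as a percentage of the mean of both parents (vertical axis from 0, dashed line at 100%) for the main transcripts of the 7 loci, with circles for the tillering and squares for the heading stage, 2 libraries each, and black lines at their mean. At the heading stage HKT1;5 stood at 5.90% and HAK1, HKT2;1, HAK5 and SOS1 between 53.1% and 59.5%, while HAK10 and NHX1 stood at 104% and 117%. For HAK5 the hybrid libraries of that stage lay between those of the parents.

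Other potassium and sodium transport genes were found by their descriptions or locus names, which gave 84 transcripts of 73 loci. Of those tested, 5 of 48 were called between the parents at the heading stage (4 higher in Xieqingzao B and 1 lower), beside 10.8% of all transcripts, 3 of 48 between the hybrid and Xieqingzao B (1 higher and 2 lower in the hybrid), beside 8.1%, and 0 of 48 between the hybrid and R9308, beside 0.886%, where 13 had an unadjusted p below 0.05 and DESeq2 called 4, beside 15.7% and 5.15%. Between stages 3 of 55 were called in R9308 (1 higher and 2 lower at heading), beside 1.2%, 1 of 55 in the hybrid (higher), beside 1.68%, and 0 of 55 in Xieqingzao B, where 9 had an unadjusted p below 0.05 and DESeq2 called 7, beside 19.6% and 9.41%. None of 54 was called in any pair at the tillering stage, beside 0% to 0.0246% of all transcripts. Unadjusted p was below 0.05 for 4 to 13 of them, beside 8.57% to 17.3%, and DESeq2 called 1 to 8, beside 2.93% to 8.82%. In the interactions none of 55 was called, beside 0%. Unadjusted p was then below 0.05 for 10 to 12, beside 12.4% to 15.8%, and DESeq2 called 3 to 6, beside 3.94% to 5.61%. Averaged over the genotypes, 7 of 55 were called between stages, 3 higher and 4 lower at heading, beside 11.2%. Among the lower ones were Os03t0575200-01, described as similar to HAK1 (-1.14, adjusted p = 0.0179), and Os05t0594200-01, similar to cation/proton exchanger 1a (-1.65, adjusted p = 0.0213).

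Another sodium transporter of the same subfamily as Os01t0307500, HKT1;1 (Os04t0607500-01), was also higher in Xieqingzao B than in R9308 at the heading stage. Its level was 2.52 ± 0.883 RPKM in Xieqingzao B, 0.128 ± 0.00766 RPKM in R9308 and 1.21 ± 0.0129 RPKM in the hybrid (n = 2 each), with a log2 fold change of 4.10 between the parents (SE 0.57, adjusted p = 0.0140). The level in R9308 rests on few reads, so the size of this fold change is uncertain. Group means of HKT1;1 were 1.41 to 3.87 RPKM at tillering, where Os01t0307500 was below 1 RPKM in every library. A further member of the subfamily, Os02t0175000-01 (HKT1;3, named after its values were seen), fell from tillering to heading in the average over genotypes (-4.02, SE 0.91, adjusted p = 0.0266), in which Os01t0307500 rose. Potassium transporter transcripts Os03t0337500-00 (2.09, adjusted p = 0.0178) and Os06t0270200-00 (1.41, adjusted p = 0.0484) and the cation/H+ exchanger Os12t0617800-01 (2.65, adjusted p = 0.0346) were higher in Xieqingzao B than in R9308 as well. The K+ channel transcript Os03t0752300-01 went the other way, at 12.2 ± 0.780 RPKM in Xieqingzao B, 27.3 ± 1.93 RPKM in R9308 and 26.6 ± 2.36 RPKM in the hybrid, so that it was called in both pairs (log2 fold change -1.29 between the parents, adjusted p = 0.0126, and 1.26 for the hybrid over Xieqingzao B, adjusted p = 0.0196). The hybrid was below Xieqingzao B for the cation/proton exchanger 1a transcript Os01t0557500-01 (-1.76, adjusted p = 0.0452) and for HAK7, Os01t0935500-01 (-1.70, adjusted p = 0.0482).

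In R9308 the transcript Os04t0445000-01, similar to the channel SKOR that releases potassium into the xylem in Arabidopsis, rose from 1.94 ± 0.841 to 10.2 ± 2.40 RPKM from tillering to heading (log2 fold change 2.48, SE 0.46, adjusted p = 0.0484). Os09t0448200-02, described as similar to a high-affinity potassium transporter, fell from 34.5 ± 6.03 to 1.05 ± 0.191 RPKM (-4.96, SE 0.74, adjusted p = 0.0372). Its locus has another annotated transcript, Os09t0448200-01, whose level is not given here, and the division of reads between them is uncertain. Os03t0337500-00 fell by 2.20 on the log2 scale (adjusted p = 0.0408). In the hybrid the cation/H+ exchanger transcript Os12t0616500-00 rose from 21.7 ± 14.9 to 370 ± 14.6 RPKM (4.19, SE 0.68, adjusted p = 0.0383). The parents had 153 to 182 RPKM of this transcript at tillering and 245 to 347 RPKM at heading in the group means.

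Of 4 regulators of these transporters, 1 was called in 1 comparison, between the parents at heading, where 10.8% of all transcripts were called. CIPK24 (Os06t0606000-01), the kinase that activates SOS1 together with CBL4, had means of 14.5 to 19.7 RPKM at the tillering stage and of 26.6 ± 0.172 RPKM in R9308, 38.7 ± 1.59 RPKM in Xieqingzao B and 19.7 and 20.2 RPKM in the hybrid libraries at the heading stage. The hybrid differed from Xieqingzao B by a log2 fold change of -0.82 (SE 0.15, adjusted p = 0.0349), under the fold threshold. CBL4 (Os05t0534400-01) stood at 2.05 to 5.94 RPKM in the group means and passed no comparison. CIPK23 (Os07t0150700-01), a kinase that activates potassium uptake together with CBL1, was the most abundant of the 4 at 150 to 404 RPKM and passed none. CBL1 (Os10t0564800-01) was lower in Xieqingzao B, at 44.3 ± 6.97 RPKM, than in R9308, at 89.8 ± 6.18 RPKM, at the heading stage, which passed the test (-1.14, SE 0.18, adjusted p = 0.0194).

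Proton pumps supply the gradient that HAK, NHX and SOS transporters use. Of 28 pump transcripts tested at the heading stage, 3 were called between the parents, all higher in Xieqingzao B, and 3 between the hybrid and Xieqingzao B, beside 10.8% and 8.1% of all transcripts. Averaged over genotypes, 3 of 29 were called between stages, all lower at heading, beside 11.2%. Among them was the vacuolar ATP synthase subunit E transcript Os01t0222500-01 (-1.76, adjusted p = 0.00792). The plasma membrane H+-ATPase transcripts Os02t0825600-01 and Os12t0638700-01 were higher in Xieqingzao B, at 12.3 ± 1.99 and 50.1 ± 4.30 RPKM, than in R9308, at 0.837 ± 0.215 and 13.2 ± 3.16 RPKM (log2 fold changes 3.74 and 1.80, adjusted p = 0.00432 and 0.0106), and lower in the hybrid than in Xieqingzao B (-1.70 and -1.30, adjusted p = 0.0285 and 0.0296). Os11t0660400-01 was higher in Xieqingzao B than in R9308 at a low level (5.68, adjusted p = 0.0210). The vacuolar H+-pyrophosphatase transcript Os06t0178900-01 fell between stages in Xieqingzao B from 181 ± 48.5 to 17.8 ± 2.23 RPKM (-3.39, SE 0.41, adjusted p = 0.0421) and was higher in the heading hybrid than in heading Xieqingzao B (1.75, adjusted p = 0.0232), and the vacuolar H+-ATPase subunit A transcript Os02t0175400-01 fell in the hybrid from 33.6 ± 2.48 to 6.38 ± 0.683 RPKM (-2.27, SE 0.41, adjusted p = 0.0426).

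The transcripts of other loci most like each member over the 12 libraries were found by Pearson's r of log2(RPKM + 1) among 16688 transcripts with a mean of at least 5 RPKM. The 12 libraries share genotype, stage and depth, and no p is attached. HAK1 was followed most closely by Os06t0614100-01, a bZIP transcription factor (r = 0.968), and by the polyubiquitin transcript Os02t0161900-01 (0.967). HAK5 was followed by the heat stress transcription factor Os05t0530400-01 (0.957) and by a phytosulfokine precursor, Os07t0124100-01 (0.954). HAK10 had the cyclin-related Os05t0398000-01 (0.910) and Os01t0120600-01 (0.901), and HKT2;1 had the NB-ARC transcript Os08t0293300-01 (0.910) and Os05t0426400-01 (0.904). For Os01t0307500 these were the RNA-processing protein Os08t0379000-01 (0.956), which ranged only from 5.13 to 10.6 RPKM, and the cysteine proteinase Os04t0208200-01 (0.956), which ranged from 0 to 55.3 RPKM. Spearman's rho was 0.678 and 0.837 for these. Os01t0307500 itself had 43.2 and 26.8 RPKM in the heading libraries of Xieqingzao B and at most 3.12 RPKM in any other library. NHX1 was nearest to the beta-tubulin transcript Os05t0413200-01 (0.966) and to Os06t0109100-00 (0.964). SOS1 was nearest to Os03t0595600-00, with a glutathione S-transferase domain (0.977), and to Os10t0122600-00 (0.975).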

How the data were processed

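RNA-Seq counts were analysed for 12 rice root libraries. According to the labels, reads were base-called with CASAVA 1.8 and quantified with RSEM 1.1.11, on the Nipponbare genome, IRGSP build 5.0. The authors deposited whole counts per transcript, unnormalized, and RPKM values that equal the counts divided by transcript length and by the library's total, as was checked on all values. The table's other 18 columns of values hold the authors' own fold changes, p-values and FDR between genotypes and were not used. Transcripts that passed filterByExpr were scaled by TMM and tested by the quasi-likelihood method of edgeR 4.0.16 (limma 3.58.1, R 4.3.3), within each stage for genotypes and over all 12 libraries for stages and interactions, with Benjamini-Hochberg adjustment over all transcripts. A standard error is the log2 fold change divided by the square root of F. DESeq2 1.42.0 was an alternative, as were library size scaling, no low-count filter, a replicate block, locus sums, 12-library fits and leaving out each library. The code was tested on counts simulated with less spread between libraries than these data. That checked the code, not the error rates of the tests here. Other values came from Python 3.11.15 with scipy 1.17.1.

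All transcripts of the 7 loci are named. From the lists of other transporters and pumps, the transcripts that passed a comparison between genotypes or stages are named. All 4 regulators and the 2 most similar transcripts per locus are named as well. The members and lists were chosen with earlier results of these data known. No sequences or coordinates were used here. Intervals for shares and ratios cover counting error only.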

Additional observations from a re-analysis of the deposited data

How the results depend on the processing

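No direction of a member with a call or an unadjusted p below 0.05 was reversed by any alternative, and without the low-count filter no count of called members moved. DESeq2 called 3 members between the hybrid and R9308 and 1 between the hybrid and Xieqingzao B at tillering, 1 between the hybrid and R9308 at heading, 3 between stages in Xieqingzao B and 2 in the hybrid, with 1 in the interaction of the hybrid against Xieqingzao B. Scaling by library size called 2 between the hybrid and Xieqingzao B at heading and 2 between stages in the hybrid. A fit of all 12 libraries called 2 between the hybrid and R9308 at tillering and 1 between the parents at heading. Counts summed per locus called 3 between stages in Xieqingzao B and 1 in the hybrid. They kept 4 of 7 ranks in the tillering hybrid. Across the alternatives other than leaving out a library, called transcripts numbered 1277 to 4158 between the parents, 343 to 3833 between the hybrid and Xieqingzao B and 0 to 1401 between the hybrid and R9308 at heading, and 0 to 2508 at tillering. TMM-adjusted totals kept 39 of 42 group means within their SD.

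Leaving out 1 library at a time gave 0 to 2 called members for the hybrid against Xieqingzao B and for the parents at heading, 0 to 3 between stages in either parent, 0 to 7 in the hybrid, 3 to 6 in the average over genotypes, 0 to 1 and 0 to 2 in the interactions of the hybrid against R9308 and Xieqingzao B, and 0 elsewhere. The 7 members in the hybrid came without its tillering replicate 1, where 5998 transcripts were called. In the tillering groups of R9308 and the hybrid 3 to 5 of 7 ranks were kept. By Spearman's rho the 2 nearest transcripts were kept as 0 of 2 for HAK1, HAK5, HKT2;1, HKT1;5 and SOS1, 1 of 2 for NHX1 and 2 of 2 for HAK10.

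Replicate numbers are shared between groups, but no label ties them to a batch, and deviations of same-numbered samples of a stage correlated at -0.358 to 0.0392 over 24472 transcripts. With the replicate number as a block, 0 members were called between the hybrid and Xieqingzao B and 1 between the parents at heading, and 1 between stages in R9308. The calls lost were those of Os01t0307500 for the hybrid over Xieqingzao B and for Xieqingzao B over R9308 (log2 fold changes -4.90 and 4.24, adjusted p = 0.0746 and 0.0728) and of SOS1 (1.55, adjusted p = 0.0706). With crossed numbers of Xieqingzao B, chosen after seeing the data, 0 were called between stages in R9308. The test at tillering rests on 0 to 20 counts per library for Os01t0307500, and each group had 2 libraries.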
